A study of Mus musculus with 4 samples.

Results

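Prostaglandin genes were followed in cultured mouse macrophages: 10 genes that free arachidonic acid, make prostaglandins E2 and D2, break prostaglandins down or receive them. They were taken by symbol (Ptgs1, Ptgs2, Ptges, Ptges2, Ptges3, Hpgd, Hpgds, Pla2g4a, Ptger2 and Ptger4) from the 18256 gene symbols of the count files, and all 10 were found. RNA came from 4 libraries of wild-type bone marrow cells, grown into macrophages over 7 days with 20 ng/ml recombinant murine MCSF (macrophage colony-stimulating factor, which drives marrow cells to become macrophages). The 2 M1 libraries came from cells given 20 ng/ml interferon-gamma and 100 ng/ml lipopolysaccharide, a bacterial cell-wall component, for the last 24 h. The 2 M0 libraries came from cells left unstimulated in MCSF. The labels do not say whether MCSF stayed in the M1 medium, and they give neither the strain nor the age or number of the mice. They also do not say whether replicates were separate cultures or animals, so the p-values speak of the scatter among 4 libraries, and that scatter may be purely technical.

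Prostaglandins are short-lived lipid signals made from arachidonic acid. Phospholipase A2 cuts arachidonic acid out of membrane lipids, a cyclooxygenase turns it into prostaglandin H2, and terminal synthases make prostaglandin E2, prostaglandin D2, prostacyclin or thromboxane from that. Macrophages stimulated with bacterial products are known to release prostaglandin E2, which acts back on macrophages through the receptors EP2 and EP4. The dehydrogenase encoded by Hpgd ends the signal inside cells by oxidising prostaglandins.

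The libraries held 17633945 to 17838606 counts in M1 and 15921466 to 18987705 in M0. Levels are given as CPM, the count divided by depth after TMM scaling (a correction for differences in library composition) and set to a common total, and 3 counts in a library stood at 0.144 to 0.185 CPM. Replicates were not copies of each other, since their counts were further apart than counting noise (chi-square over degrees of freedom 12.6 in M1 and 8.78 in M0). Of 9 macrophage markers, 4 were higher in M1, 3 lower and 2 did not pass, and their summed level was 29371 to 29843 CPM in M1 and 21033 to 23364 CPM in M0. Markers of T and NK cells summed to 1.17 to 1.60 CPM in M1 and 0.290 to 1.73 CPM in M0, with Cd3g and Ncr1 at 0 counts in all libraries. Neutrophil markers were present in both groups, at a summed 356 to 382 CPM in M1 and 347 to 358 CPM in M0. Of 9 tested among 10, Csf3r and Camp were higher in M1, 6 were lower (Ltf averaged 5.11 CPM in M1 and 35.3 CPM in M0, S100a9 28.8 CPM in M1 and 74.0 CPM in M0), S100a8 did not pass, and none was at 0 in all libraries. Of 5 dendritic cell markers tested among 7, 2 were higher and 3 lower, with sums of 6.77 to 9.42 CPM in M1 and 8.63 to 10.1 CPM in M0. The part of these cells in the results was not tested.

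All 10 genes passed the filter on low counts and differed between M1 and M0, with 6 of them higher in M1 and 4 lower. A gene was called where the adjusted p of the quasi-likelihood test in edgeR was under 0.05. Of all 12966 tested genes, 48.2% were called, 24.2% as higher and 24% as lower. Higher calls made up 50.2% of all calls, against 29.8% with libraries scaled by totals alone. The libraries of the groups did not overlap for any of the 10, against 74.9% of tested genes without overlap. The 10 genes had been named with results of these data known, so their count is a description. The changes split into large and small ones. Ptges, Ptgs2, Hpgd, Ptgs1 and Hpgds moved by more than 2 on the log2 scale, and Pla2g4a, Ptger2, Ptger4, Ptges2 and Ptges3 by less than 1. Of the 3140 genes called higher, 48 had a larger log2 fold change than Ptges, and of the 3109 called lower, 24 fell further than Hpgd. In bulk RNA, fewer cells of a type and less RNA per cell cannot be told apart.

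**Figure D1:**
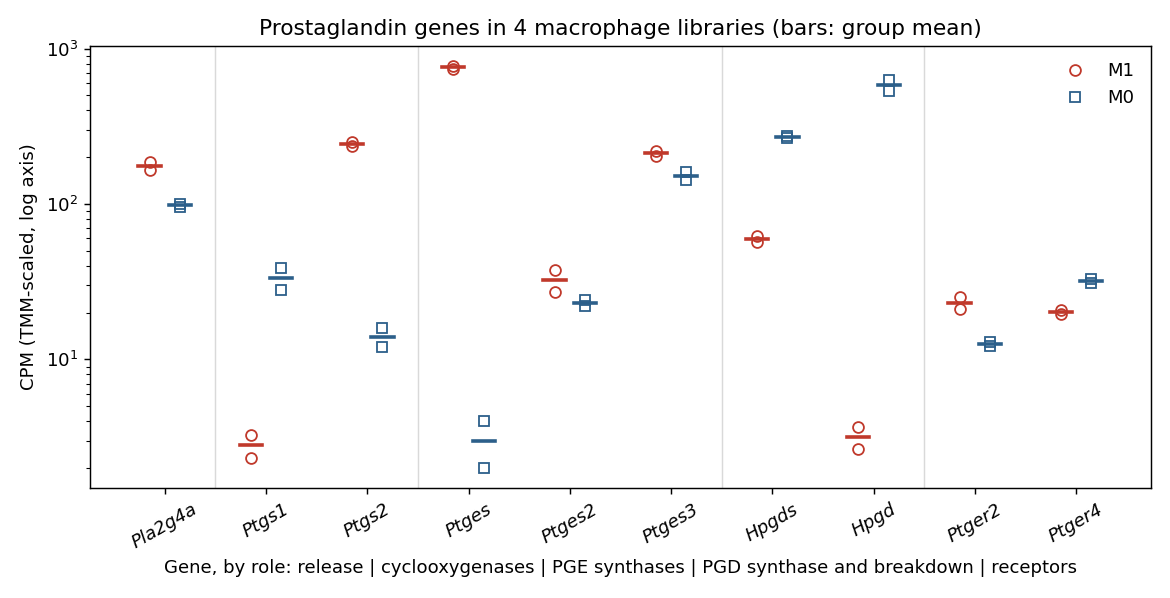
TMM-scaled CPM (log axis) of the 10 prostaglandin genes in each of the 2 M1 libraries (circles, left of each pair) and 2 M0 libraries (squares), with bars at the group means and the genes ordered by role. Ptges stood at 743 to 772 CPM in M1 and 2.01 to 4.00 CPM in M0, and Hpgd at 2.65 to 3.69 CPM in M1 and 533 to 629 CPM in M0.

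Pla2g4a was modestly higher in M1. It encodes the calcium-dependent cytosolic phospholipase A2 that releases arachidonic acid (chromosome 1, 149829618 to 149961290, minus strand, GRCm38). It had 186 and 166 CPM in the M1 libraries, against 100.0 and 96.2 CPM in the M0 libraries. Both M1 libraries lay above both M0 libraries. The log2 fold change was 0.84 ± 0.10 (SE, n = 2 libraries a group, as throughout), with edgeR adjusted p = 4.73e-05.

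The cyclooxygenases moved in opposite directions. Ptgs2, the inducible cyclooxygenase, rose in M1 and Ptgs1, the enzyme usually described as constitutive, fell. Ptgs2 (chromosome 1, 150100031 to 150108227, plus strand) had 236 and 251 CPM in M1, against 12.1 and 15.9 CPM in M0. Mean levels were 243 ± 10.6 CPM in M1 and 14.0 ± 2.72 CPM in M0 (SD), 17.4-fold higher in M1, with a log2 fold change of 4.13 ± 0.14 (SE, edgeR adjusted p = 1.44e-09). The M1 libraries were far above the M0 libraries and close to each other. Ptgs1 (chromosome 2, 36230426 to 36252272, plus strand) had 3.26 and 2.34 CPM in M1, against 28.1 and 38.5 CPM in M0. Its M1 values rested on 53 and 38 counts. The log2 fold change was -3.57 ± 0.24 (SE, edgeR adjusted p = 3.54e-07), and the M0 mean was 11.9 times the M1 mean.

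Between genes, levels were compared per kilobase of exon (CPM divided by the length of all annotated exons merged). On that scale Ptgs2 made up 98.4% and 98.9% of the summed cyclooxygenase level in the M1 libraries and 26.7% and 26.0% in the M0 libraries. The sum itself was 52.4 and 55.4 CPM per kilobase in M1, against 9.87 and 13.4 in M0. The log2 ratio of Ptgs2 over Ptgs1 was 6.22 ± 0.40 in M1 and -1.48 ± 0.04 in M0 (SD), a difference of 7.71. An exact two-sided permutation test over libraries gave p = 0.333, the smallest value that 2 against 2 allows, here and for the 5 other ratios computed. The more abundant cyclooxygenase transcript was thus Ptgs2 in both M1 libraries and Ptgs1 in both M0 libraries. Markers of platelets, which carry the Ptgs1 enzyme, went several ways: of 4 tested among 7, Pf4 was higher in M1 (64.3 CPM in M1, 17.4 CPM in M0), Gp1ba was lower and 2 did not pass, with a summed level of 62.8 to 78.0 CPM in M1 and 25.7 to 31.3 CPM in M0, and none was at 0 counts throughout. Their part in the Ptgs1 result was not tested.

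The start regions of the 2 cyclooxygenase genes are shown because these genes encode enzymes for the same reaction and moved apart. Each runs from 250 bases before to 30 bases after the RefSeq gene start (GRCm38.p6, gene strand), at chr1:150099781-150100060 for Ptgs2 (plus strand) and chr2:36230176-36230455 for Ptgs1 (plus strand). Capitals mark matches on either strand to any of 11 motifs: GAGGAA (PU.1, a myeloid factor), GGGCGG (GC box), TTGCGCAA (C/EBP), TGACG (CRE half-site), CACGTG (E-box), TATAAA (the TATA box), TGANTCA (AP-1), TTCNNNGAA (GAS), the core of the interferon-stimulated response element, GCGNGGGCG (EGR) and the κB consensus.
Ptgs2: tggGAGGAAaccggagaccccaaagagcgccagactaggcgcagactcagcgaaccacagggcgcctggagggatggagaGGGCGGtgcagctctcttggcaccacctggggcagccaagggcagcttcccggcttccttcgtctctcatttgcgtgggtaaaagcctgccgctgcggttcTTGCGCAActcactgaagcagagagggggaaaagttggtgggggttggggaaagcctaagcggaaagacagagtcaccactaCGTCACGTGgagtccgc
Ptgs1: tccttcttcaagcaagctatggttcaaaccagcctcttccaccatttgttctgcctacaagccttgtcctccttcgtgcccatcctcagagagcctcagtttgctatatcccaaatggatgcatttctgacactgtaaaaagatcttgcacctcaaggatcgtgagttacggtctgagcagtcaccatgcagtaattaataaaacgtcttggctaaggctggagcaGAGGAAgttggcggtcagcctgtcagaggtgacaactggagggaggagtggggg
The Ptgs2 stretch held GAGGAA at -247, GGGCGG at -170, TTGCGCAA from -69 to -62, a CRE half-site on the minus strand from 14 to 18 and, overlapping it, CACGTG from 17 to 22 (positions count from 1 at the RefSeq start, with -1 just before it). TTGCGCAA was present in 0.18% of 32851 stretches of this length from the same table, CACGTG in 6.79%, TGACG in 19.9%, GGGCGG in 34.7% and GAGGAA in 26.0%. The Ptgs1 stretch held GAGGAA at -24 and no other match. Neither TGANTCA, TTCNNNGAA, the interferon-stimulated core, GCGNGGGCG nor the κB consensus had a match in the stretches of any of the 10 genes, and in all stretches these stood in 7.46%, 7.83%, 3.28%, 5.3% and 4.22%. A match is a description of letters only, and no match says only that these letters are not in this window.

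Of the 3 prostaglandin E synthase genes, Ptges changed most. It encodes the inducible membrane-bound synthase that works downstream of the Ptgs2 enzyme (chromosome 2, 30889471 to 30929863, minus strand). Ptges had 772 and 743 CPM in M1, against 2.01 and 4.00 CPM in M0, where the counts were 42 and 69. The M1 mean of 758 ± 20.9 CPM was 252 times the M0 mean of 3.01 ± 1.40 CPM (SD), and the log2 fold change was 8.01 ± 0.21 (SE, edgeR adjusted p = 2.66e-10). The M1 libraries were close together, and of the M0 libraries replicate 2 was the higher. The log2 fold change was 7.56 without M0 replicate 1 and 8.55 without M0 replicate 2.

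Ptges2 and Ptges3 were slightly higher in M1. Ptges2, a second membrane-associated synthase (chromosome 2, 32395896 to 32405772), had 37.6 and 27.1 CPM in M1, against 22.0 and 24.3 CPM in M0. The M1 libraries lay above the M0 libraries, M1 replicate 2 only slightly, and the log2 fold change of 0.49 ± 0.17 (SE) passed narrowly (edgeR adjusted p = 0.0372). That call was lost in 6 of 12 alternatives, among them 3 of the 4 fits that leave out a library (adjusted p = 0.289 without M0 replicate 1, 0.179 without M0 replicate 2 and 0.332 without M1 replicate 1). Ptges3 encodes p23, known both as cytosolic prostaglandin E synthase and as a cochaperone of Hsp90 (chromosome 10, 128058954 to 128077272). It had 220.0 and 203 CPM in M1, against 143 and 161 CPM in M0, a log2 fold change of 0.47 ± 0.10 (SE, edgeR adjusted p = 0.00291). The call was lost without M0 replicate 1 (adjusted p = 0.0943) and when libraries were scaled by totals alone (0.0859). The pseudogenes Ptges3-ps and Gm11893 share 22.2% of the 50-base words of the Ptges3 transcript, so its counts are uncertain, by an amount not measured.

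Per kilobase, Ptges held 64.8% and 66.1% of the summed level of the 3 E synthase genes in M1, against 0.737% and 1.29% in M0. Ptges3 held 32.7% and 32.0% in M1, against 93.0% and 92.6% in M0. The summed level was 303 and 286 CPM per kilobase in M1 and 69.5 and 78.6 in M0. The log2 ratio of Ptges over Ptges3 was 1.01 ± 0.04 in M1 and -6.57 ± 0.58 in M0 (SD), so Ptges ranked above Ptges3 in both M1 libraries and below it in both M0 libraries.

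The start regions of Ptges and Hpgd, which rose and fell most among the 10, are shown in the same way, at chr2:30903268-30903547 (minus strand) and chr8:56294302-56294581 (plus strand), with the same motifs in capitals. The RefSeq start of Ptges is also the start of a protein-coding transcript in GENCODE, but lies 26.6 kb inside the gene span given above. For Hpgd the GENCODE start lies 33 bases after the RefSeq start.
Ptges: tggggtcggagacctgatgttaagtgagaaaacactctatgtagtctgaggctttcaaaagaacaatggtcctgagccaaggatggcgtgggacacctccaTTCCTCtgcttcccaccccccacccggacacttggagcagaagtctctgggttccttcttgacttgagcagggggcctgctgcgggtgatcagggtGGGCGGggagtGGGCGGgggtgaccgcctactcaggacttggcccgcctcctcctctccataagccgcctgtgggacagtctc
Hpgd: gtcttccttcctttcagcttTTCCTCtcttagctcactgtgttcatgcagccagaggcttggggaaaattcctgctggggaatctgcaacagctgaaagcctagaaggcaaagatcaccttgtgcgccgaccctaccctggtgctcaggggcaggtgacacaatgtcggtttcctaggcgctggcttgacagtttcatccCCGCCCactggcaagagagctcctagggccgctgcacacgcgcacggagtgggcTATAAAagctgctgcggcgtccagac
Ptges held GGGCGG at -53 and again at -42 and the minus-strand form of GAGGAA at -149. Hpgd held the minus-strand forms of GAGGAA at -230 and of GGGCGG at -50, and TATAAA from 5 to 10 after the RefSeq start. That TATAAA thus lies before the GENCODE start of Hpgd. TATAAA was present in 13.1% of all stretches. GGGCGG was found in the stretches of 5 of the 10 genes (Ptgs2, Ptges and Ptges3, higher in M1, and Hpgd and Ptger4, lower), and GAGGAA in 5 (Ptgs2 and Ptges, higher, and Ptgs1, Hpgd and Hpgds, lower).

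Hpgds and Hpgd were both lower in M1. Hpgds, the haematopoietic prostaglandin D synthase (chromosome 6, 65117293 to 65144908), had 57.4 and 62.3 CPM in M1, against 267 and 274 CPM in M0. The M0 mean was 4.51 times the M1 mean, and the log2 fold change was -2.17 ± 0.10 (SE, edgeR adjusted p = 1.64e-08). Hpgd, the dehydrogenase that starts prostaglandin breakdown (chromosome 8, 56294585 to 56321043), had 3.69 and 2.65 CPM in M1 from 60 and 43 counts, against 533 and 629 CPM in M0. The M0 mean was 183 times the M1 mean, with a log2 fold change of -7.52 ± 0.17 (SE, edgeR adjusted p = 1.13e-10). Both M1 libraries were far below both M0 libraries for each gene.

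Mast cells, basophils and eosinophils also carry Hpgds. Of 10 mast cell and basophil markers, 4 were analysed and 2 tested. Cpa3 had 0 counts in M1 and 1 and 10 counts in M0, Mcpt8 had 6 to 10 counts in every library, Kit did not pass, and Hdc was higher in M1 (27.8 ± 2.32 CPM in M1, 0.921 ± 1.14 CPM in M0, SD). The 4 summed to 27.3 to 31.3 CPM in M1 and 1.74 to 3.50 CPM in M0. Of 5 eosinophil markers 4 were analysed, summing to 12.4 to 15.4 CPM in M1 and 53.5 to 55.6 CPM in M0. Among the 3 tested, Siglecf and Ccr3 were lower in M1, Prg2 did not pass, and Il5ra was at 0 counts in all libraries. Their part in the fall of Hpgds was not tested.

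Set against each other per kilobase, the log2 ratio of Ptges over Hpgds was 4.37 ± 0.12 in M1 and -5.86 ± 0.67 in M0, a difference of 10.24. The log2 ratio of Ptgs2 over Hpgd was 4.84 ± 0.40 in M1 and -6.83 ± 0.11 in M0 (SD), a difference of 11.67. In linear terms Ptgs2 stood 23.5 and 34.9 times above Hpgd in the M1 libraries, and at 0.00833 and 0.00930 of it in the M0 libraries.

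**Figure D2:**
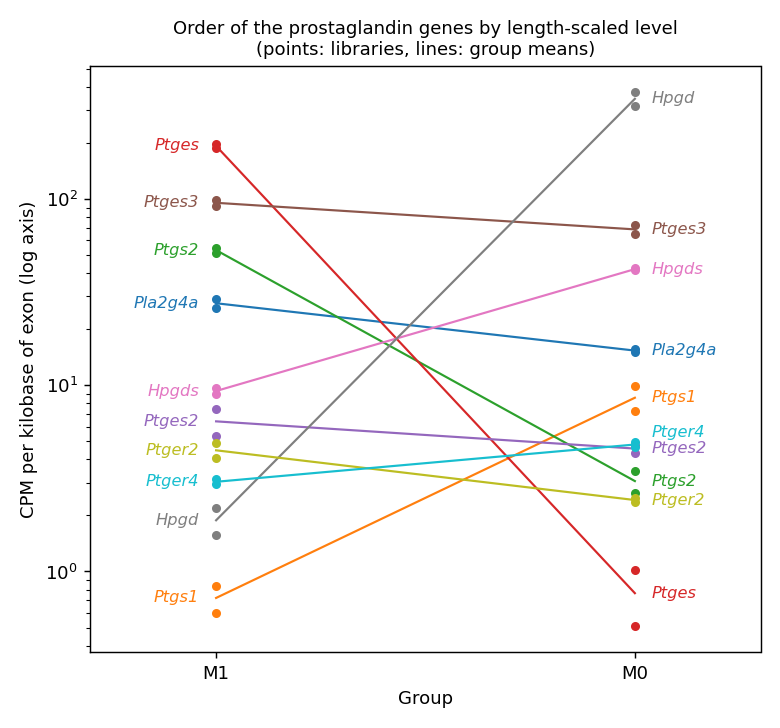
CPM per kilobase of exon (log axis) of the 10 genes in M1 (left) and M0 (right), with points for libraries and lines between group means. Ptges led in M1 at 193 CPM per kilobase and was last in M0 at 0.765, and Hpgd led in M0 at 345 and was ninth in M1 at 1.88.

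By length-scaled level the order in M1 was Ptges (193 CPM per kilobase), Ptges3 (95.4), Ptgs2 (53.2), Pla2g4a (27.6), Hpgds (9.31), Ptges2 (6.40), Ptger2 (4.47), Ptger4 (3.03), Hpgd (1.88) and Ptgs1 (0.721). The libraries of neighbours in this order did not overlap. In M0 the order was Hpgd (345), Ptges3 (68.7), Hpgds (42.0), Pla2g4a (15.4), Ptgs1 (8.57), Ptger4 (4.81), Ptges2 (4.57), Ptgs2 (3.06), Ptger2 (2.42) and Ptges (0.765). Here the libraries of Ptger4 and Ptges2 overlapped, and Ptgs2 and Ptger2 changed places when the longest transcript was used as the length. Among 12728 tested genes with a length, Ptges lay at percentile 97.9 in M1 and 15.1 in M0, Ptgs2 at 92.1 in M1 and 34.6 in M0, and Hpgd at 27.5 in M1 and 99.3 in M0. Ptges3 hardly changed place, at percentile 95.7 in M1 and 95.9 in M0.

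The receptor genes changed in opposite directions, Ptger2 higher and Ptger4 lower in M1. EP2 and EP4, encoded by Ptger2 and Ptger4, are receptors for prostaglandin E2 that raise cyclic AMP. Ptger2 (chromosome 14, 44988195 to 45003820) had 25.3 and 21.2 CPM in M1, against 12.9 and 12.2 CPM in M0, and rose with a log2 fold change of 0.89 ± 0.17 (SE, edgeR adjusted p = 0.00132). Ptger4 (chromosome 15, 5206661 to 5244187) had 19.5 and 20.8 CPM in M1, against 30.9 and 33.0 CPM in M0, and fell with a log2 fold change of -0.66 ± 0.14 (SE, edgeR adjusted p = 0.00263). Both calls were lost without M0 replicate 2 (adjusted p = 0.0512 for Ptger2 and 0.0582 for Ptger4) and kept their direction. Exons of Ttc33 and of the pseudogene Gm15937 on the opposite strand overlap 16.5% of the merged Ptger4 exons, and no source gives the strand setting of the counting, so counts of Ptger4 are uncertain.

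Per kilobase, Ptger2 made up 62.4% and 56.6% of the sum of the pair in M1, against 34.8% and 32.2% in M0. The sum was 7.81 and 7.20 CPM per kilobase in M1 and 7.13 and 7.32 in M0, so the sums of the groups overlapped. The log2 ratio of Ptger2 over Ptger4 was 0.56 ± 0.25 in M1 and -0.99 ± 0.12 in M0 (SD), and with the longest transcript as the length it was 0.23 in M1 and -1.31 in M0.

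**Figure D3:**
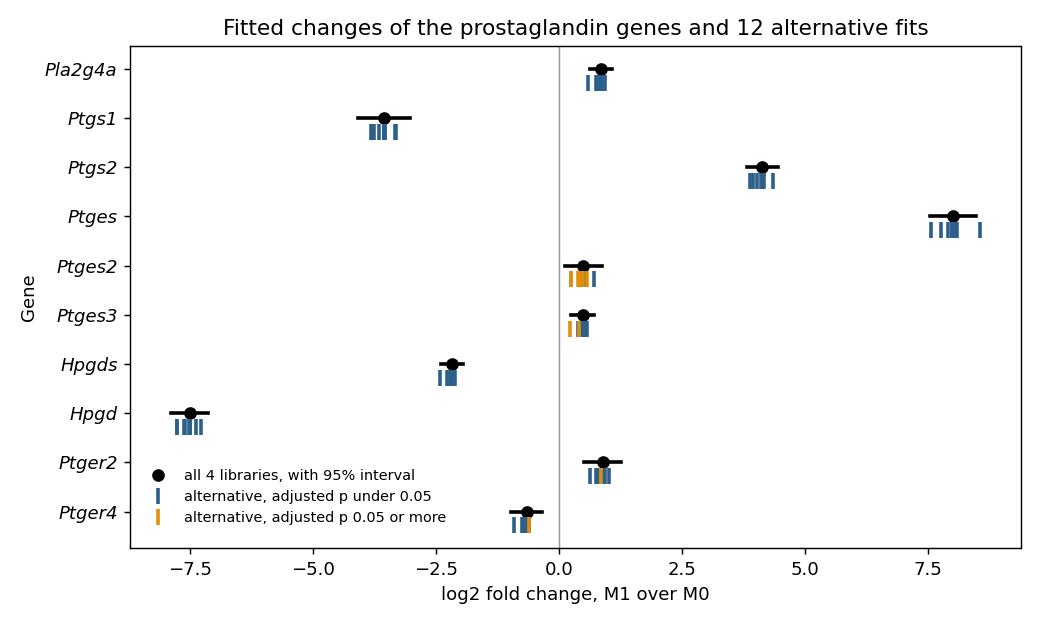
Fitted log2 fold change of M1 over M0 for each gene with its 95% interval (black), and below it the values of 12 alternative fits (ticks, orange where adjusted p was 0.05 or more). No alternative changed the direction of any of the 10 genes, and orange ticks stand under Ptges2, Ptges3, Ptger2 and Ptger4.

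Around these 10 genes, 98 other gene symbols of the pathway, alternative names included, were listed, 94 were analysed and 83 were tested. Of these 24 were higher and 29 lower in M1, with a median log2 fold change of -0.06 (all tested genes, 24.2% higher, 24% lower, median -0.02). Without M0 replicate 1 or without M0 replicate 2 the number called lower was 19 in each case.

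Among genes listed around arachidonate release, 3 of 13 tested were higher in M1 and 7 lower (median log2 fold change -0.95). These counts give no direction of release, because some listed genes do not themselves release arachidonate. Among those, Anxa1 was called lower (log2 fold change -1.30), Acsl4 was called higher (0.62) and Lpcat3 did not pass (0.22). Mgll, a lipase whose product from endocannabinoids can feed prostaglandin synthesis, fell to 0.616 and 1.41 CPM in M1, against 62.4 and 59.8 CPM in M0 (log2 fold change -5.90 ± 0.25, edgeR adjusted p = 6.06e-09). Without M1 replicate 2 it was -6.61. Daglb, which makes the lipid that Mgll cleaves, had 34.5 ± 4.25 CPM in M1 and 149 ± 7.79 CPM in M0, a log2 fold change of -2.11 (edgeR adjusted p = 9.14e-08), though Rac1 and Daglb overlap on opposite strands over 24.1% of the Daglb exons. The secreted phospholipase gene Pla2g5 had 17.5 and 12.7 CPM in M1, against 3.21 and 4.29 CPM in M0, and rose (log2 fold change 2.01 ± 0.26, edgeR adjusted p = 7.34e-05). Thus, of the release genes named so far, Pla2g5 and Pla2g4a were higher in M1, and Mgll and Daglb were lower. The phospholipase gene Pla2g15 was lower too, at 68.2 and 68.0 CPM in M1, against 214 and 230 CPM in M0. Its log2 fold change was -1.70 (edgeR adjusted p = 1.15e-07), so the phospholipase genes did not all move one way. Pla2g4b, Pla2g2d, Pla2g2e, Pla2g10 and Faah did not pass the filter, with 0 to 18 counts a library.

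Of 5 tested genes for other prostanoid synthases, 1 was higher and 2 lower in M1. Akr1b3, an aldo-keto reductase with prostaglandin F synthase activity, was higher (50.2 ± 4.59 CPM in M1, 36.7 ± 0.0666 CPM in M0, log2 fold change 0.45, edgeR adjusted p = 0.0112), but missed the threshold without M0 replicate 1 (0.114), M0 replicate 2 (0.108) or M1 replicate 1 (0.0762). Ptgis, the prostacyclin synthase, was lower with 2 and 2 counts in M1 and 36 and 22 counts in M0 (log2 fold change -3.54, edgeR adjusted p = 0.0033), and its adjusted p was 0.0648 with M0 replicate 1 left out. The carbonyl reductase gene Cbr1 was lower too (-0.58, edgeR adjusted p = 0.024), and did not pass without M0 replicate 1 (0.121), M0 replicate 2 (0.136) or M1 replicate 1 (0.11). Tbxas1, the thromboxane synthase, did not pass at 92.3 ± 6.75 CPM in M1 and 108 ± 0.110 CPM in M0 (adjusted p = 0.0984). Stromal cells are a known source of prostacyclin synthase. Of 7 tested stromal markers among 8 listed, 3 were higher and 4 lower, their sum was 458 to 520 CPM in M1 and 695 to 717 CPM in M0, none was at 0 throughout, and their part in the Ptgis value was not tested.

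In transport and breakdown, 1 of 6 tested genes was higher and 2 lower. Abcc4, an efflux pump that can carry prostaglandins out of cells, had 89.5 and 112 CPM in M1, against 40.9 and 38.1 CPM in M0, and rose (log2 fold change 1.35 ± 0.13, edgeR adjusted p = 7.5e-06). Cbr3 fell (-1.46, edgeR adjusted p = 0.000637, but 0.063 without M0 replicate 2), as did the prostaglandin reductase gene Zadh2 (-0.65, edgeR adjusted p = 0.0011). The uptake carrier gene Slco2a1 did not pass, at 2.71 ± 0.00119 CPM in M1 and 4.11 ± 1.07 CPM in M0 (adjusted p = 0.198). Among the other prostanoid receptors, Ptgir, the prostacyclin receptor, rose to 22.6 and 25.0 CPM in M1, against 13.8 and 11.6 CPM in M0 (log2 fold change 0.90 ± 0.17, edgeR adjusted p = 0.00116). Ptger3, encoding EP3, had 0 and 2 counts in M1 and 25 and 33 in M0, an M0-over-M1 ratio of 24.7 (95% exact binomial counting interval 6.54 to 209, counting error only). Its call (edgeR adjusted p = 0.00312) was lost in each fit without an M0 library (0.0564 and 0.0896). Tbxa2r, Ptgdr2 and Ptgfr had at most 4 counts in any library.

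Downstream of EP2 and EP4, 2 of 17 tested signal transduction genes were higher in M1 and 8 lower (median log2 fold change -0.34). Without M0 replicate 1 the counts were 1 and 5. Adcy3, an adenylyl cyclase that makes cyclic AMP, had 1.66 and 2.89 CPM in M1, against 32.8 and 36.8 CPM in M0 (log2 fold change -3.93 ± 0.24, edgeR adjusted p = 1.46e-07), with 22.1% of its exons overlapped by Cenpo on the opposite strand. Rapgef3, the cyclic AMP sensor EPAC1, had 6 and 4 counts in M1 and 81 and 62 in M0 (-3.57 ± 0.54, edgeR adjusted p = 0.000243), and the cyclase gene Adcy9 fell by 1.62 on the log2 scale. Genes known to respond to cyclic AMP did not move one way: of 11 tested, 3 rose and 2 fell. Pde4b, a phosphodiesterase that degrades cyclic AMP, rose to 199 and 215 CPM in M1, against 20.2 and 21.8 CPM in M0 (log2 fold change 3.30 ± 0.11, edgeR adjusted p = 1.55e-09). Il10 rose by 2.38 on the log2 scale, and Crem, a cyclic AMP-inducible regulator, fell by 1.10, though with M0 replicate 2 left out the adjusted p of Crem was 0.0613. With libraries scaled by totals, 5 of the list were lower.

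Of 11 tested transcription factors linked to Ptgs2, 4 were higher in M1 and 3 lower (median log2 fold change 0.01). Cebpb, whose protein is a C/EBP factor, had 132 and 107 CPM in M1, against 36.9 and 42.0 CPM in M0 (log2 fold change 1.60 ± 0.13, edgeR adjusted p = 2.05e-06). Cebpd, of the same family, rose by 1.53 and Jun fell by 1.27 on the log2 scale. Genes on the opposite strand overlap 20.7% of the Cebpb and 15.0% of the Cebpd exons. Of 9 RNA-binding proteins that act on the stability or translation of Ptgs2 mRNA and of similar transcripts, 1 was higher and 5 lower, and 3 were lower when either M0 library was left out. Zfp36l1, a decay factor, had 6.89 and 6.15 CPM in M1, against 43.5 and 41.9 CPM in M0 (log2 fold change -2.71 ± 0.16, edgeR adjusted p = 1.15e-07). A long noncoding RNA gene on the opposite strand, not analysed here, overlaps 55.9% of its exons. Its relative Zfp36l2 fell by 1.43 and Tia1, a translational silencer, by 0.70 on the log2 scale.

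Ptges3 also serves Hsp90, and 8 of 10 listed genes around that chaperone were higher in M1, with 0 lower (median log2 fold change 0.73). Of all tested genes, 24.2% were called higher. With libraries scaled by totals, 6 were higher. Stip1 and Dnaja1, cochaperones, had log2 fold changes of 1.07 and 0.94 (edgeR adjusted p = 1.7e-05 and 9.02e-05), against 0.47 for Ptges3. The 8 of 10 include Pgk1, which encodes a glycolytic enzyme rather than a cochaperone. Pgk1 had the largest change in the list, with 78.6 and 65.1 CPM in M1, against 20.7 and 30.2 CPM in M0 (edgeR adjusted p = 3.31e-05).

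**Figure D4:**
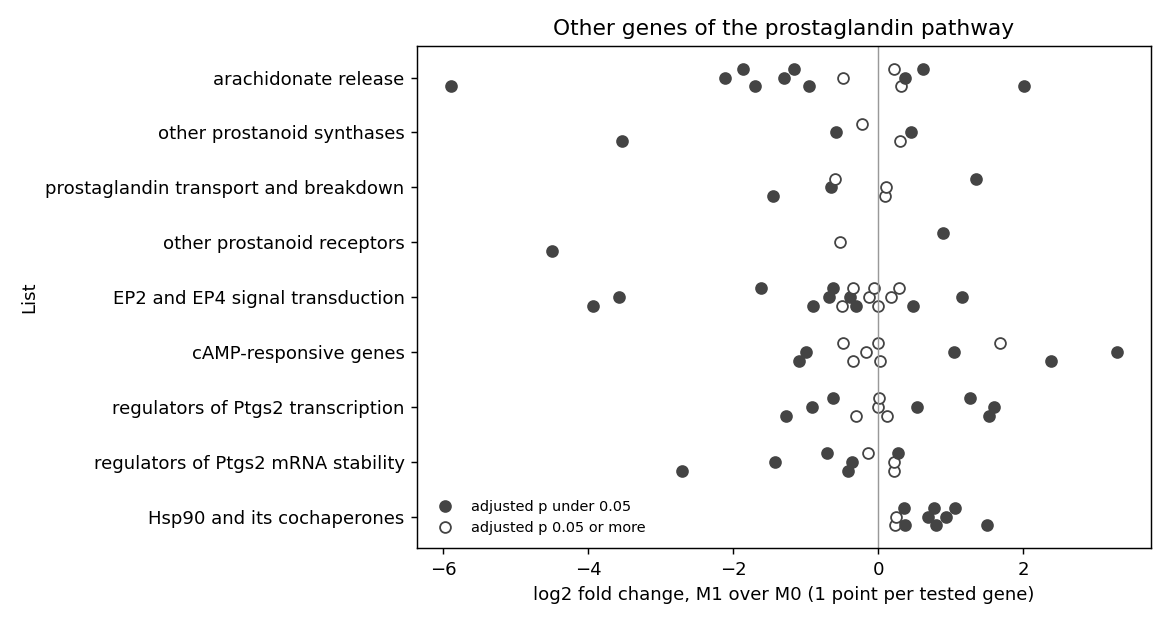
Log2 fold change of M1 over M0 for each tested gene of the 9 surrounding lists, filled where the adjusted p was under 0.05. Points lie on both sides of 0 in every list except the Hsp90 list, where 8 of 10, the glycolytic gene Pgk1 included, were called higher and none lower.

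Profiles over the 4 libraries were compared by the root mean square difference of centred log2 CPM. This measure follows the difference between groups, so similar fold changes come from the choice itself. The genes most like Ptgs2 were Ddx60 (0.0503), Gpr141 (0.0756) and Tnf (0.0809). Their log2 fold changes were 4.17, 4.04 and 4.02, beside 4.13 for Ptgs2. Tnf, which encodes tumour necrosis factor, had 290.0 and 329.5 CPM in M1, against 15.5 and 22.9 CPM in M0. For Ptges they were Mir155hg, the host gene of microRNA-155 (0.0613), Gbp5 (0.117) and Gbp6 (0.162). Mir155hg had 845 and 864 counts in M1 and 1 and 3 in M0, and the prior count of 2 in this measure draws such low values together. For Hpgd they were Cd28 (0.333), Shisa9 (0.411) and Slco2b1 (0.591), and the prior count shapes their M1 values too. Cd28 had 4 counts in each M1 library and a log2 fold change of -8.50, beside -7.52 for Hpgd. Shisa9 and Slco2b1 had 0 counts in M1 and were at least 130.5-fold and 478-fold lower there, with M1 set at 3 counts over the group.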

How the data were processed

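Values were read counts per gene symbol in 4 libraries (2 M1, 2 M0), deposited by the authors without normalization. Per the submitters' processing notes they used featureCounts of Subread 2.0.1 on mm10, with DESeq2 1.30.1 and R 4.0.4 also named. The annotation, strand setting and gene filter are not given in the sources used here. Low counts were removed by filterByExpr (smallest count 10, smallest total 15), and 12966 genes stayed while 5290 did not. The test was the quasi-likelihood F test of edgeR 4.0.16 under R 4.3.3, with TMM factors and group as the single term. Its p-values were adjusted after Benjamini and Hochberg across the 12966 genes, and 0.05 was the threshold. SE values are the unshrunk coefficient over the root of the F statistic. CPM used library totals times TMM factors. The steps were tested on simulated data.

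Coordinates and exon lengths came from GENCODE M21 (GRCm38, the assembly mm10 names), of which merged exons include rare isoforms. Start regions came from RefSeq on GRCm38.p6, matched by symbol for 10 of 10 genes. Shared sequence was measured in words of 50 bases. Motifs, members and lists were chosen with earlier results of these data known. Named from each list were up to 3 called genes with the largest change, and for Ptgs2, Ptges and Hpgd the 3 most similar profiles. Anxa1, Acsl4, Lpcat3, Pla2g15, Tbxas1, Slco2a1, Ptgs2os and Ptgs2os2 were named after their values were seen. Other settings tried were 3 other scalings (upper quartile, relative log expression, totals alone), 2 other tools (limma-voom of limma 3.58.1 and DESeq2 1.42.0), a filter at 50 counts and 1 CPM or none at all, a block for replicate number, fits lacking 1 library, and other gene lengths. Depth limits the precision of genes with few counts, and intervals on counts cover counting error only.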

Additional observations from a re-analysis of the deposited data

How the results depend on the processing

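The direction of all 10 prostaglandin genes held in the 12 alternative fits, and 6 of them (Ptges, Ptgs2, Ptgs1, Hpgd, Hpgds, Pla2g4a) passed in every one. Their log2 fold changes ranged from 7.56 to 8.55 for Ptges, 3.87 to 4.34 for Ptgs2, -3.83 to -3.32 for Ptgs1, -7.78 to -7.28 for Hpgd, -2.43 to -2.12 for Hpgds and 0.59 to 0.94 for Pla2g4a. Ptges2 also missed the threshold with upper-quartile factors (adjusted p = 0.0874), library totals (0.269) and DESeq2 (0.0595). Of the 10 genes, 4 to 6 were called higher and 3 to 4 lower. Library totals gave 2024 higher and 4776 lower genes of all tested, a share of calls higher of 29.8% instead of 50.2%, and moved the median log2 fold change by -0.25 (upper-quartile factors by -0.10). Leaving out a library gave 1691 to 2966 genes higher (1832 without M0 replicate 2) and 1463 to 2855 lower (1549 without M0 replicate 2), the lowest without M0 replicate 1, and 19 to 28 pathway genes lower, and with 1 library left in a group it was assumed to vary like the other group. The cause of these shifts was not tested. The replicate number as a block gave 6 members higher and 4 lower, and 24 and 28 pathway genes. Differences of the ratios cannot change with that block, since each group holds both replicate numbers. No label says that equal numbers share an animal or culture. Deviations of same-numbered libraries from their group means had r = -0.08 across genes, which are not independent replicates. With 2 libraries a group this is a single value, so it cannot tell whether the libraries were paired. Differences of log2 ratios between groups do not depend on gene length by construction, while the level of a ratio does. Of 792 further values under alternatives, 729 kept direction and call, 24 lost a call, 39 moved and 0 reversed. Ptges in M0 and Ptgs1 and Hpgd in M1 rest on 38 to 69 counts a library.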

Other observations

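Ptgs2 lies near Pla2g4a on chromosome 1, 138.7 kb apart, and noncoding RNA genes flank it on the opposite strand. Ptgs2os2, also known as lincRNA-Cox2, lies 50.8 kb beyond the end of Ptgs2 at its nearest point, and its own start, on the minus strand, 56.7 kb beyond. It had 10.6 and 6.46 CPM in M1, against 2.30 and 1.97 CPM in M0, a log2 fold change of 1.99 ± 0.34 (SE, edgeR adjusted p = 0.000562), beside 4.13 for Ptgs2. Without M0 replicate 2 its adjusted p was 0.0505. Ptgs2os, whose annotated span begins 67 bases before Ptgs2 on the other strand, did not pass the filter, with 6 and 18 counts in M1 and 1 and 0 counts in M0, an M1-over-M0 ratio of 28.1 (95% exact binomial counting interval 4.59 to 1158, counting error only). Its exons and those of Ptgs2 do not overlap in GENCODE M21.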
